A study of Mus musculus with 24 samples.

Results

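Mirtrons and other miRNAs that are made without Drosha were followed in exosome-enriched fractions (EEFs) of mouse hippocampus. The members are 7 names of the deposited count tables: mmu-mir-320-3p, mmu-mir-320-5p, mmu-mir-484, mmu-mir-877-5p, mmu-mir-877-3p, mmu-mir-1224-5p and mmu-mir-1981-5p. They were chosen by name, for how their precursors are known to be made. All 7 had reads, among 1073 names with reads in the series. The EEFs came from male C57BL/6 mice of 6 to 9 weeks (substrain C57BL/6OlaHsd in the study's methods) that received 0.3 µg kainic acid (KA) in 0.2 µl, or PBS as control, into the basolateral amygdala, and that were given midazolam to curtail seizures and perfused with PBS before collection at 24 h or 2 weeks. EEFs were prepared by ultracentrifugation (UC), from 5 pooled hippocampi per sample, or with a precipitation kit, from 4, and were treated with RNase A before RNA extraction. The combinations of method, treatment and time gave 8 groups with 3 small RNA libraries in each. Pooling hides the spread between single mice, and the labels do not say whether libraries of a group shared animals or preparation days, so that p-values measure the spread between these libraries only. In such pooled fractions, fewer vesicles from a cell type and less of a miRNA per vesicle cannot be told apart.

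A canonical miRNA precursor is cut out of its primary transcript by Drosha with its partner DGCR8, exported, and cut again by Dicer. A mirtron skips the first cut, because its hairpin is a short intron whose ends are set by the spliceosome. The lariat is opened by the debranching enzyme and folds directly into a Dicer substrate. Other precursors that need no Drosha, of which miR-320 and miR-484 are textbook cases in mouse, begin at the capped 5′ end of a short transcript, and the 3p arm of miR-320 is the one that is mainly kept. These miRNAs are used as markers of miRNA production that persists when Drosha or DGCR8 is missing.

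The 5 mature sequences that could be matched are printed here because they show what splicing leaves at the 5′ end. They are from RefSeq on GRCm38.p6, and capitals mark the seed, bases 2 to 8, which is the main determinant of target pairing.
mmu-mir-877-5p: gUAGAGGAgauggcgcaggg
mmu-mir-877-3p: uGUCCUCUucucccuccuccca
mmu-mir-1224-5p: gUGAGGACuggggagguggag
mmu-mir-1981-5p: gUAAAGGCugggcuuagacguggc
mmu-mir-484: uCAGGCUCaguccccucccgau
All of the 5p arms from intronic hairpins open with the GU of a 5′ splice site, so that the splice site supplies the first base before the seed and the first base of the seed. No seed was shared between these 5 miRNAs or with another mature miRNA of the RefSeq table, and no other hairpin shared 16 bases with one of them. Of the 5p arms from intronic hairpins, miR-1224-5p had 61.9% G among its bases, miR-877-5p 55% and miR-1981-5p 41.7%. The share of G was 18.2% in miR-484 and 4.55% in miR-877-3p.

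Placed on the GENCODE M21 annotation of GRCm38, 3 of the 5 hairpins filled an annotated intron to the base. The hairpins follow with the first and last bases of the intron in capitals, and for miR-484, which fills no intron, with the mature miRNA in capitals.
Mir877: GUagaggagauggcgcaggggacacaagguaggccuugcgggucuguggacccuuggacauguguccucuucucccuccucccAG
Mir1224: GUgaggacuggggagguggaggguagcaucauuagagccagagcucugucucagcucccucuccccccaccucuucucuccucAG
Mir1981: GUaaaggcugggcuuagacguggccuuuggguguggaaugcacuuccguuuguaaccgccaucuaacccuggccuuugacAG
Mir484: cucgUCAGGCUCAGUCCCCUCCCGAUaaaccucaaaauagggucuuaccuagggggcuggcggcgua
Mir877 (chr17:35960730-35960814, minus strand) is an intron of 85 bases of Abcf1, which encodes an ABC-type ATPase that takes part in translation initiation. Mir1224 (chr16:20604452-20604536, plus strand) is an intron of 85 bases of Vwa5b2. Mir1981 (chr1:184822407-184822488, minus strand) is an intron of 82 bases of Marc2, which encodes a mitochondrial amidoxime reductase. Each of these 3 begins with GU and ends with AG. Mir484 (chr16:14159626-14159692, plus strand) is 67 bases long and lies on the opposite strand to Marf1, with 19 bases over an exon of that gene. Mir320 (chr14:70443510-70443591, plus strand) overlaps no other gene and lies 63 bases from Polr3d, a subunit gene of RNA polymerase III on the minus strand.

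The members together took 0.641% ± 0.114 (SD, n = 12) of the counted reads in the UC libraries and 0.188% ± 0.0328 (SD, n = 12) in the kit libraries. Libraries held 85436 to 169639 counted reads with UC and 154884 to 676726 with the kit, so that 3 reads, the floor used for a count of 0, were worth 17.7 to 35.1 CPM (counts scaled to a library total of 1e6) in UC libraries and 4.43 to 19.4 CPM in kit libraries. Most member reads were of miR-320-3p, which supplied 77.4 to 92.4% of them in single UC libraries and 56.8 to 85.3% in kit libraries. By mean CPM, miR-320-3p ranked 26th of 859 names with reads in UC EEFs and 64th of 961 in kit EEFs. It was followed by miR-877-5p (108th and 125th), miR-1224-5p (123rd and 224th), miR-320-5p (136th and 193rd), miR-484 (250th and 256th) and miR-1981-5p (368th and 294th). In UC EEFs the neighbours miR-877-5p (399.6 CPM ± 125, SD, n = 12), miR-1224-5p (296 ± 142) and miR-320-5p (240 ± 128) lay within their spread of each other, as did miR-1224-5p (59.4 ± 28.1) and miR-320-5p (81.3 ± 42.4) with the kit. These CPM are shares of reads and depend on how well each sequence is captured in the library. Those of miR-320-5p rest on 639 reads, none of them unaltered.

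UC and kit EEFs differed for 4 of the 6 members that could be tested: miR-1224-5p, miR-320-3p and miR-320-5p were lower with the kit, and miR-1981-5p was higher. miR-877-3p, with 3 reads in all, did not pass the filter of over 1 CPM in at least 6 libraries of a method. Among all 397 miRNAs tested by both methods, 66.2% passed an adjusted p of 0.05 (quasi-likelihood test of edgeR, adjusted by Benjamini and Hochberg over all miRNAs tested) (33% lower and 33.2% higher with the kit). The members' share of calls is therefore near that of all miRNAs. The median log2 difference, kit minus UC, was −0.96 over the 6 members and −0.02 over all 397. Both the 4 calls and the members' median include miR-320-5p, none of whose 639 reads was unaltered.

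**Figure D1:**
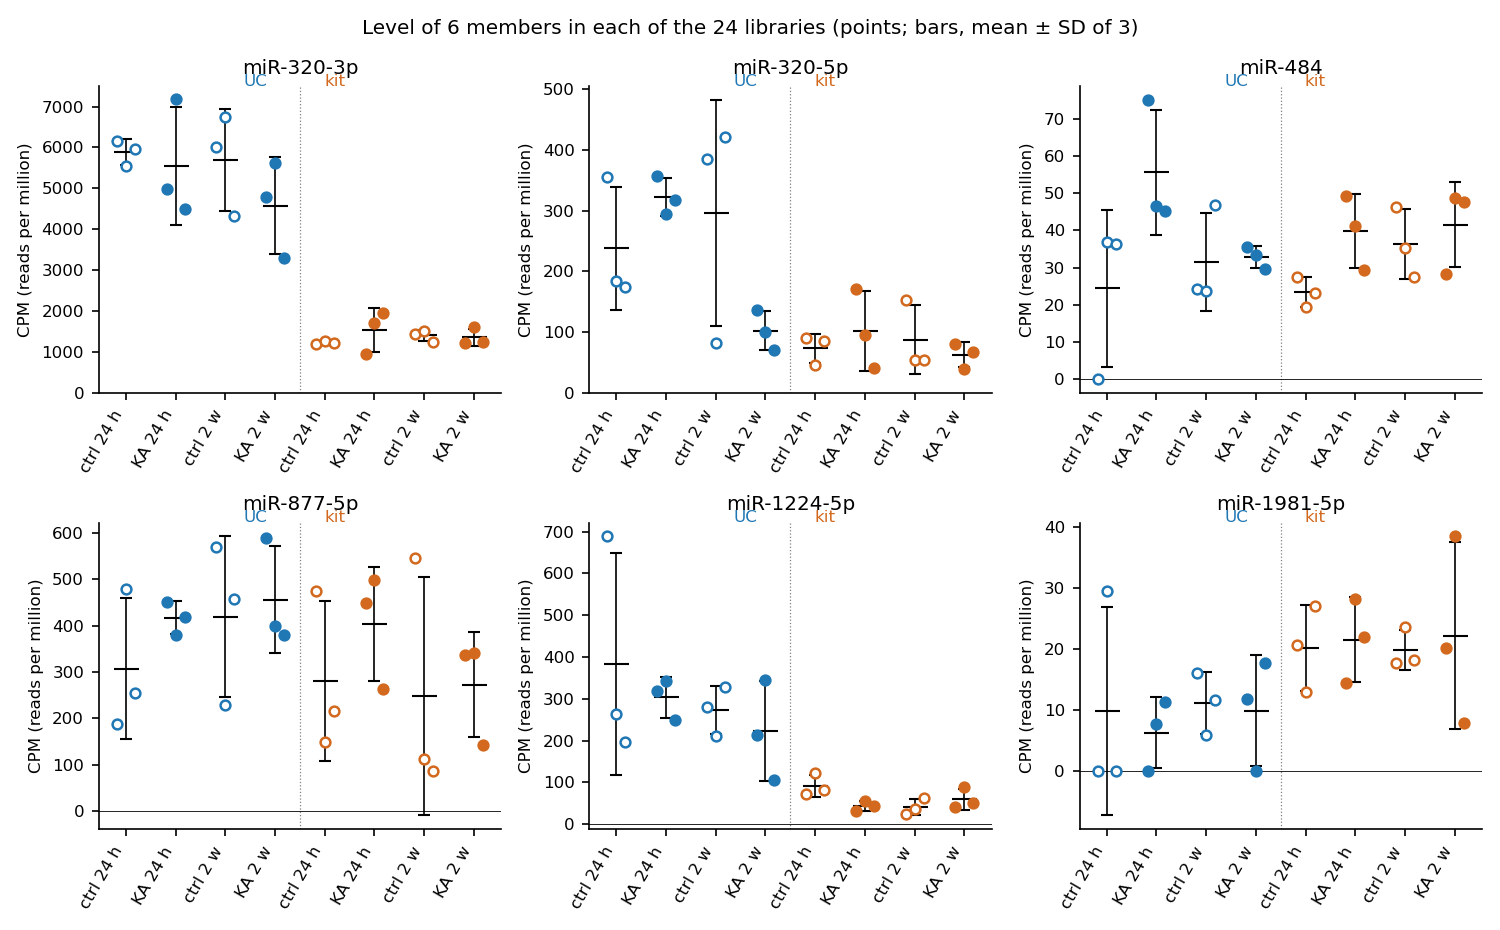
Level of 6 members in CPM (y axis, linear, a scale per panel) in each of the 24 libraries, by method, treatment and time (x axis). Open points are control and filled points KA libraries, and bars give the mean ± SD of 3. The 12 UC libraries lie above the 12 kit libraries for miR-320-3p, while miR-877-5p and miR-484 overlap between methods.

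miR-320-3p was the clearest case. Its levels in UC controls were 6166, 5549 and 5970 CPM at 24 h and 6015, 6756 and 4331 CPM at 2 weeks, and in UC libraries of KA mice 4989, 7190 and 4484 CPM at 24 h and 4801, 5624 and 3289 CPM at 2 weeks. With the kit, controls held 1203, 1259 and 1212 CPM at 24 h and 1443, 1515 and 1254 CPM at 2 weeks, and KA libraries 943, 1710 and 1961 CPM at 24 h and 1231, 1603 and 1252 CPM at 2 weeks. The lowest UC library stood above the highest kit library, a separation without overlap that 10.8% of the tested miRNAs showed. It was 4.02-fold lower with the kit, a log2 difference of −2.01 (SE 0.15, adjusted p = 1.9e-13).

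miR-1224-5p, from the intron of Vwa5b2, had the most negative difference among the members. UC controls held 689, 265 and 197 CPM at 24 h and 281, 212 and 328 CPM at 2 weeks, and UC libraries of KA mice 319, 342 and 249 CPM at 24 h and 214, 346 and 107 CPM at 2 weeks. Kit libraries ranged from 24.9 to 123 CPM with a median of 54.1 CPM. The ranges touched only where the lowest UC library, of KA mice at 2 weeks, fell under the highest kit library, a control at 24 h. The log2 difference was −2.35 (SE 0.23, adjusted p = 5.2e-11), which is 5.08-fold lower with the kit and the 20th lowest of 397.

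miR-320-5p ranged from 71.2 to 421 CPM with UC (median 240) and from 39.9 to 171 CPM in kit libraries (median 74.3), with a log2 difference of −1.49 (SE 0.25, adjusted p = 2.6e-06). The ranges overlapped. The reads given to this arm matched its hairpin over a short stretch only, as described with the read ends, so that the value concerns these reads rather than an intact miR-320-5p.

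miR-877-5p, from the intron of Abcf1, was not called. It ranged from 188 to 588 CPM with UC (median 409) and from 86.6 to 545 CPM with the kit (median 299.7), with a log2 difference of −0.44 (SE 0.25, −0.93 to 0.05 at ± 1.96 SE, adjusted p = 0.115). The kit libraries varied widely: 476, 148 and 216 CPM in controls at 24 h, 448, 498 and 263 CPM in KA at 24 h, 545, 113 and 86.6 CPM in controls at 2 weeks and 336, 340 and 143 CPM in KA at 2 weeks. Kit libraries numbered 1 in the labels held 336 to 545 CPM and those numbered 3 held 86.6 to 263 CPM. Blocked on the replicate number, the difference was −0.53 (adjusted p = 0.0330), and without the first kit control at 2 weeks it was −0.70 (adjusted p = 0.0104). The call thus depended on the fit as well as on 1 library.

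miR-484 and miR-1981-5p were scarce. miR-484 had 0 to 8 reads per UC library (55 in all) and 3 to 33 per kit library (144 in all), or 36.1 CPM ± 17.8 and 35.3 CPM ± 10.8 (SD, n = 12 each). Its log2 difference was −0.02 (SE 0.27, −0.54 to 0.50 at ± 1.96 SE, adjusted p = 0.955). A difference inside these bounds in either direction remains possible at this depth, and the bounds are not a limit of detection. miR-1981-5p, from the intron of Marc2, had 15 reads in 8 of 12 UC libraries and 89 reads over all 12 kit libraries. It was 2.18-fold higher with the kit, with a log2 difference of 1.13 (SE 0.43, adjusted p = 0.0207). The call was lost without the second kit library of KA mice at 2 weeks, which held 26 of the 89 kit reads (0.88, adjusted p = 0.0706), and in fits of control (0.85, adjusted p = 0.238) or KA libraries alone (1.28, adjusted p = 0.0878).

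**Figure D2:**
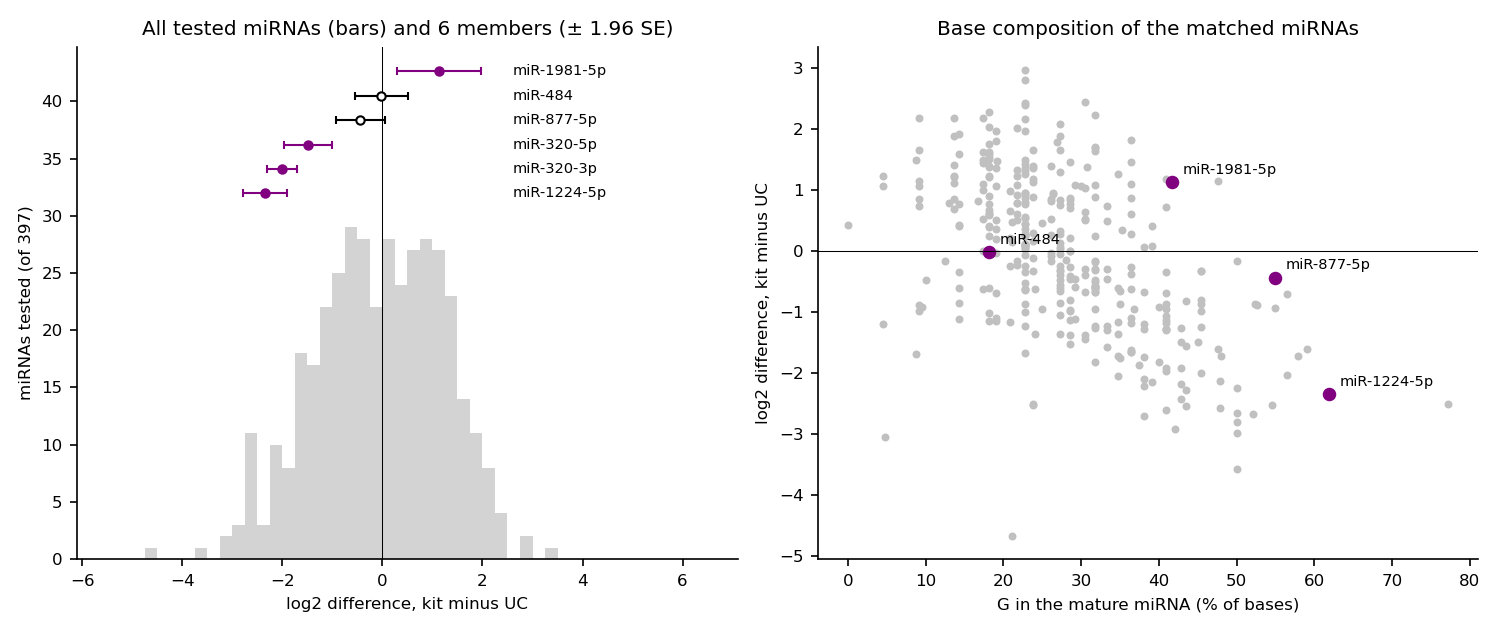
Left, log2 difference, kit minus UC (x axis), of all 397 tested miRNAs (grey bars, number of miRNAs on the y axis) and of 6 members (points ± 1.96 SE, filled where the adjusted p was under 0.05). Right, the same difference (y axis) against the percentage of G in the mature miRNA (x axis) for 359 matched miRNAs, with the 4 matched members in purple. miR-1224-5p sits among the lowest values and miR-1981-5p lies to the right of 0.

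The G-rich members were read beside other G-rich miRNAs. Over the 359 tested miRNAs with a RefSeq sequence, the percentage of G and the log2 difference between kit and UC had a Spearman correlation of −0.53, and the percentage of G or C one of −0.56. This is a correlation across miRNAs of the same libraries, which are not independent replicates. All 18 matched miRNAs with at least 50% G, miR-1224-5p and miR-877-5p among them, were lower with the kit. Over all matched miRNAs 181 of 359 were lower, with a median log2 difference of −0.02. The median of the 18, which includes these members, was −2.14. miR-1224-5p (61.9% G, −2.35) lay near that median, while miR-877-5p (55% G, −0.44) and miR-1981-5p (41.7% G, 1.13) lay above it. The part of base composition in the difference was not tested. Sums of oligodendrocyte and neuronal markers also differed between methods, but not every marker did. The summed level of 2 oligodendrocyte miRNAs (miR-219a-2-3p and miR-338-3p) was 5942 to 10689 CPM in UC and 1629 to 2154 CPM in kit libraries. That of 4 neuronal miRNAs was 28176 to 40756 and 40295 to 76625 CPM. The UC and kit medians were 7223 and 851 CPM for miR-219a-2-3p, but 1258 and 1086 CPM for miR-338-3p. Among the neuronal miRNAs they were 19839 and 30025 CPM for miR-9-5p and 7148 and 15274 CPM for miR-128-3p. Those of miR-124-3p (5754 and 6033 CPM) and miR-132-3p (1053 and 1230 CPM) were close. The 3 red blood cell miRNAs summed to 310 to 1247 CPM in UC and 421 to 1519 CPM in kit libraries, most of it miR-486-5p (copies a and b together), while miR-451a did not exceed 11.3 and 96.7 CPM. The 2 microglial or myeloid miRNAs, miR-142a-3p and miR-223-3p, summed to at most 37.6 CPM in UC and 68.9 CPM in kit libraries. The 2 choroid plexus miRNAs summed to 295 to 2867 CPM in UC and 658 to 3206 CPM in kit libraries, and markers of liver and muscle did not exceed 21.4 CPM. Their part in the members' differences was not tested.

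KA left no member past adjustment in any of the 4 comparisons with control. Over all miRNAs, 0.476% of 420 passed an adjusted p of 0.05 with UC at 24 h and 0.952% at 2 weeks, and 0% of 520 with the kit at either time. DESeq2 and limma-voom also called 0 members in each. At an unadjusted p of 0.05, the threshold of the study, 1 of 6 members passed with UC at 2 weeks, where 7.86% of all miRNAs did, and 0 of 6 in the other 3 comparisons, where 2.86% (UC, 24 h), 4.62% (kit, 24 h) and 2.69% (kit, 2 weeks) did.

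The member name with the lowest p was miR-320-5p, which held no unaltered read among its 639. UC controls at 2 weeks held 385, 82.5 and 421 CPM and UC libraries of KA mice 137, 99.8 and 71.2 CPM, so that the groups overlapped through 1 control. The log2 difference, KA minus control, was −1.36 (SE 0.44, adjusted p = 0.206). Without that control, replicate 2, it was −1.79 with an adjusted p of 0.0232. At 24 h the same reads stood at 355, 184 and 175 CPM in UC controls and 357, 295 and 317 CPM after KA, with a log2 difference of 0.39 (SE 0.42, adjusted p = 1.00). The difference between the KA effects at 2 weeks and at 24 h was −1.76 (SE 0.60, adjusted p = 0.277) and passed the unadjusted threshold only. With the kit, controls at 2 weeks held 153, 54.3 and 54.7 CPM and KA libraries 81.0, 39.9 and 67.5 CPM, with a log2 difference of −0.55 (SE 0.52, adjusted p = 0.998).

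The most abundant member, miR-320-3p, was not called between KA and control. The log2 difference was −0.16 (SE 0.28) at 24 h and −0.29 (SE 0.28) at 2 weeks with UC, and 0.46 (SE 0.31) and −0.05 (SE 0.31) with the kit, with adjusted p between 0.806 and 1.00. At ± 1.96 SE the UC values reached from −0.71 to 0.38 and from −0.83 to 0.26. For miR-877-5p the log2 differences were 0.35 (SE 0.37) and 0.23 (SE 0.36) with UC, and 0.61 (SE 0.57) and 0.15 (SE 0.57) with the kit. The KA and control libraries of miR-877-5p overlapped in each of the 4 comparisons. For miR-1224-5p they were −0.36 (SE 0.40) and −0.23 (SE 0.40) with UC, and −0.90 (SE 0.47) and 0.67 (SE 0.47) with the kit.

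In the kit libraries at 24 h, miR-1224-5p held 72.4, 123 and 81.1 CPM in controls and 31.8, 56.5 and 43.9 CPM after KA, so that the 3 KA libraries lay under the 3 controls (adjusted p = 0.839). Of all 520 miRNAs in this comparison, 9.04% were separated in this way. At 2 weeks the kit controls held 24.9, 35.4 and 63.8 CPM and the KA libraries 40.5, 88.7 and 51.7 CPM, which overlapped. The difference between these 2 KA effects was 1.57 (SE 0.67, adjusted p = 0.986), which also passed the unadjusted threshold only. For miR-484, with 3 to 17 reads in the kit libraries at 24 h, the 3 KA libraries (49.2, 41.1 and 29.3 CPM) lay above the 3 controls (27.6, 19.4 and 23.2 CPM), with a log2 difference of 0.86 (SE 0.50, adjusted p = 0.839). With UC the reads of miR-484 were 0, 5 and 5 in controls and 8, 6 and 4 after KA at 24 h. In CPM these KA libraries (75.2, 46.6 and 45.3) also lay above the controls (0, 36.8 and 36.4). Of all 420 miRNAs in this comparison, 9.76% were separated. The log2 difference of miR-484 was 0.96 (SE 0.69, adjusted p = 1.00). miR-1981-5p had 2 to 5 UC reads per group, too few to judge a KA difference there, and overlapped between KA and control in the kit libraries. The KA effects of UC and kit EEFs differed for no member, with adjusted p of at least 0.996 at both times, where 0 of 397 miRNAs passed (9 and 14 at an unadjusted p of 0.05).

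**Figure D3:**
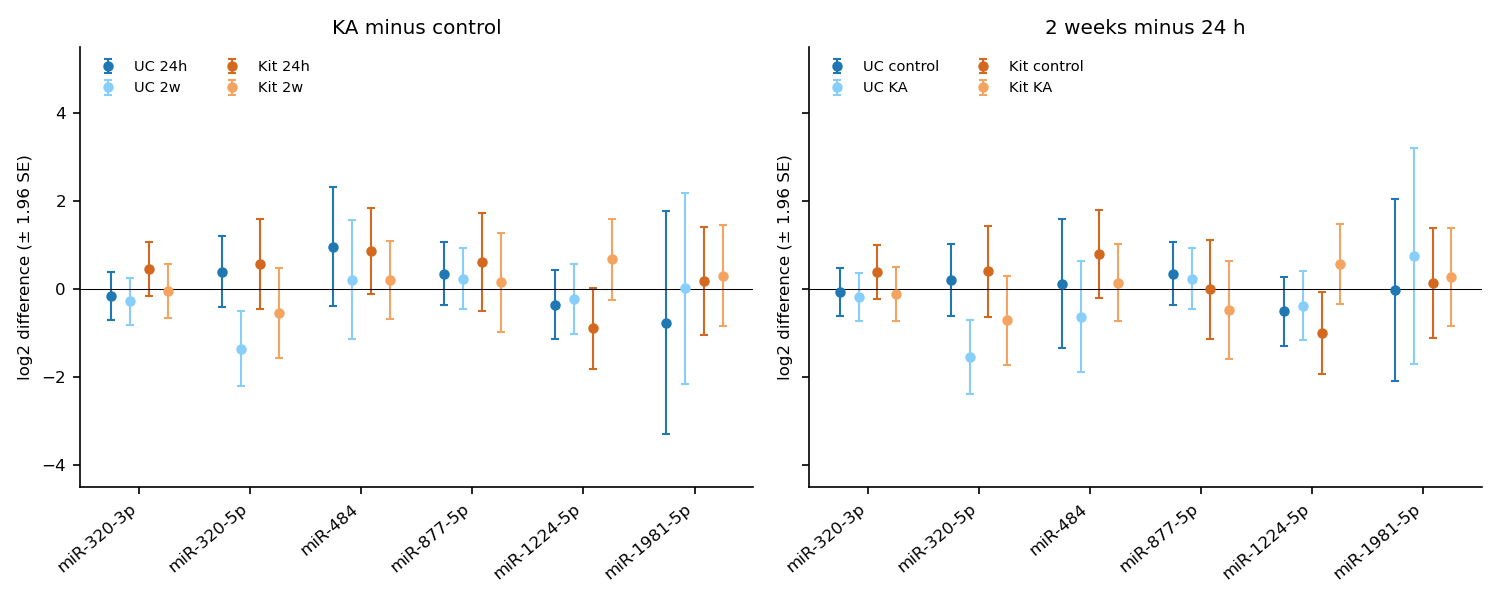
Log2 differences (y axis) of 6 members (x axis), KA minus control on the left and 2 weeks minus 24 h on the right, by method and time or treatment (colours), with bars of ± 1.96 SE from edgeR. Most bars include 0. The value of miR-320-5p at 2 weeks after KA with UC lies under 0 in both panels.

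Time was compared within each treatment, and these comparisons share libraries with those of KA. No member passed adjustment, against 0% of 420 miRNAs in UC controls, 0.952% in UC libraries of KA mice, 0% of 520 in kit controls and 0.192% in kit libraries of KA mice. In UC libraries of KA mice, the reads counted as miR-320-5p stood at 357, 295 and 317 CPM at 24 h. At 2 weeks they stood at 137, 99.8 and 71.2 CPM, without overlap. In this comparison 10.5% of the 420 miRNAs, and miR-484 among the members, were also separated. This log2 difference of −1.55 (SE 0.43) had an adjusted p of 0.0708. Same-numbered libraries of these groups deviated together only weakly (r of 0.113 to 0.174), and the labels name no shared animal or day. Blocked on the replicate number, the log2 difference was −1.58 with an adjusted p of 0.00967. It also passed without the first UC library of KA mice at 2 weeks (−1.73, adjusted p = 0.0393). With 1 library left out the difference ranged from −1.73 to −1.34. Over all alternatives the adjusted p was 0.00967 to 0.221. In UC controls the same comparison gave 0.21 (SE 0.42, adjusted p = 0.993). miR-1224-5p was lower at 2 weeks than at 24 h in kit controls by the unadjusted threshold only (−1.001, SE 0.48, adjusted p = 0.953). These were the 2 member values past an unadjusted p of 0.05, at which 10.5% of all miRNAs passed in UC libraries of KA mice, 4.05% in UC controls, 3.65% in kit controls and 3.08% in kit libraries of KA mice.

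The arms of the member hairpins had unequal shares of the counted reads. For miR-320 the share rests on the reads counted as miR-320-5p, none of which was unaltered, so that it compares names in the table rather than intact arms. The 3p name supplied 95.7% ± 2.39 (SD, n = 12) of miR-320 reads with UC and 94.1% ± 3.66 (SD, n = 12) with the kit, a difference of −1.59 percentage points (permutation within treatment and time, 100000 resamples, two-sided p = 0.222, adjusted p = 0.340 over 127 hairpins). The lowest share, 84.7%, was in the first kit library of KA mice at 24 h. Among the 127 hairpins with enough reads, 43.3% passed. KA libraries had a 3p share of 96.0% ± 2.20 against 95.4% ± 2.74 in controls with UC (exact permutation p = 0.685) and 93.9% ± 4.84 against 94.3% ± 2.44 with the kit (exact permutation p = 0.900, SD, n = 6 per group). For miR-877 the arm kept was the 5p arm, which starts at the 5′ splice site. The 3p arm was read in 0 of 624 miR-877 reads with UC, which allows a share of up to 0.481% by the floor of 3 reads (exact 95% interval up to 0.589%), and in 3 of 1210 reads with the kit (0.248%, exact 95% interval 0.0512 to 0.723%). These 3 reads were in 3 libraries, and 1 of them matched the arm only in part. The miR-1981 3p arm had 0 reads with UC and 3 with the kit. Intervals and floors cover counting error only, since the reads carry no molecular identifiers.

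The second deposited table splits the reads of each miRNA into unaltered reads and patterns whose ends or bases differ from the hairpin, and here miR-877-5p and miR-1224-5p stood out from most miRNAs. Over all libraries 53.1% of the 1831 miR-877-5p reads and 47.5% of the 659 miR-1224-5p reads were altered, against a median of 12.7% over the 243 miRNAs with at least 240 reads, where they ranked 34th and 38th. miR-320-3p (18.1% of 13902 reads) ranked 93rd. The less deeply read miR-484 had 30.7% of 199 reads altered and miR-1981-5p 17.3% of 104. Nearly all of this was at the 3′ end, since bases that do not match the hairpin followed 964 of the 972 altered miR-877-5p reads and 311 of the 313 altered miR-1224-5p reads.

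The added bases differed between the members. On miR-877-5p they were A alone in 56.4% of reads with an addition, A followed by U in 18.05% and U alone in 17.5%, where the median miRNA of 232 with at least 50 such reads had 15.98%, 0.844% and 24.0%. A single A came right after the annotated end in 158 reads and after 2 further templated bases in 151, and AA right after the end in 123. On miR-1224-5p the shares were 39.2% A alone, 11.3% A followed by U and 27.0% U alone. Among the 232 miRNAs, miR-877-5p ranked 32nd for A alone and 10th for A followed by U, and miR-1224-5p 55th and 18th. On miR-320-3p U alone made up 76.4% (26th of 232), and A alone 2.54%. Not all these bases came after the annotated end. On miR-320-3p 58.1% of the additions began at or before the last annotated base, on miR-1224-5p 33.8% and on miR-877-5p 8.40%. Such bases were counted with the additions. The mix was alike in both methods for miR-877-5p, with A alone in 56.6% of UC and 56.3% of kit additions, and for miR-320-3p, with U alone in 78.0% and 74.3%. No test was made of these mixes.

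**Figure D4:**
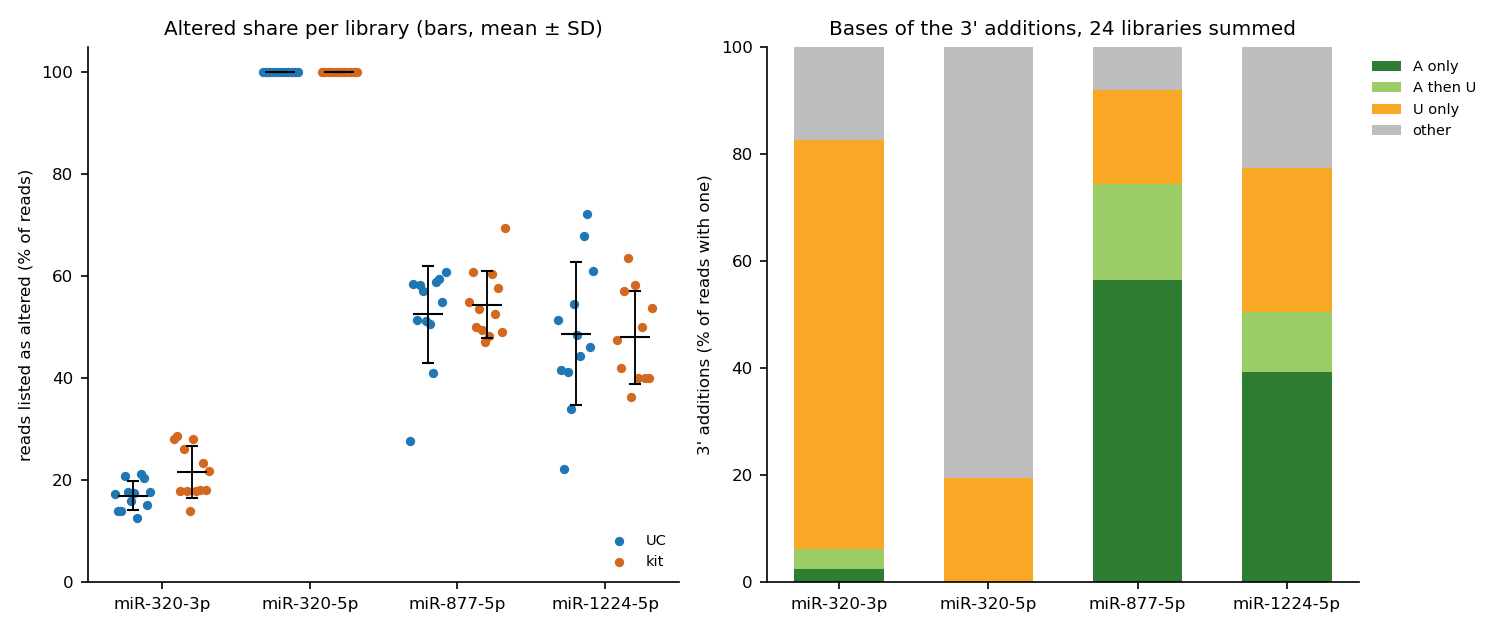
Left, reads listed as altered in percent of a member's reads (y axis) in each library with at least 10 reads, by member (x axis) and method (colour), with the mean ± SD. Right, the bases of 3′ additions in percent of the reads with one (y axis), summed over 24 libraries. The additions of miR-877-5p and miR-1224-5p were led by A, and those of miR-320-3p by U.

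The altered share of miR-877-5p was 52.6% ± 9.58 (SD, n = 12) with UC, from 27.8 to 60.9%, and 54.5% ± 6.60 (SD, n = 12) with the kit, from 47.2 to 69.4%. It did not differ past the test (1.94 percentage points, permutation p = 0.592, adjusted p = 0.701). Neither did that of miR-1224-5p, at 48.8% ± 14.0 (SD, n = 12) and 48.1% ± 9.14 (SD, n = 11, since 1 kit library had under 10 reads), with a permutation p of 0.892 and an adjusted p of 0.941. For miR-320-3p it was 17.04% ± 2.84 in UC and 21.7% ± 5.06 in kit libraries, a difference of 4.64 percentage points (permutation p = 0.0192, adjusted p = 0.0863). Over the 193 miRNAs tested, 16.6% passed. For 3′ additions alone 21.2% passed, and miR-320-3p was at 16.2% ± 2.61 and 20.8% ± 4.91 (permutation p = 0.0163, adjusted p = 0.0658). After KA the altered share of miR-877-5p with UC was 57.1% ± 3.46 against 48.1% ± 11.9 in controls (SD, n = 6 each, exact permutation p = 0.105, adjusted p = 0.967), and the lowest control was a library with 18 reads. Without that library of 18 reads the difference of 9.00 percentage points fell to 4.94. Without the second control at 24 h it became 11.1 (exact permutation p = 0.035, not adjusted). Without the third at 2 weeks it became 11.2 (exact permutation p = 0.045, not adjusted). Over all alternatives the exact permutation p was 0.035 to 0.205. For the other members and the kit the exact permutation p were between 0.305 and 1, and adjustment left 0% of 170 miRNAs in UC and 0% of 222 in kit libraries.

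miR-320-5p was unlike the rest, because none of its 639 reads was unaltered. In 624 of them (97.7%) the bases up to position 15 of the annotated arm did not match. These positions were taken as counted from 1 at the arm's 5′ end, which was not checked. In 623 of the 639 reads (97.5%) the bases from the 11th after its annotated end did not match. The most frequent 3′ addition, UUGCU, was in 272 reads. Only 3 of 243 miRNAs had over 99% of altered reads. The miRNAs whose levels followed miR-320-5p most closely were miR-6240 (Pearson r = 0.79), miR-1195 (0.70) and miR-6236 (0.68), out of 396 candidates. The r are over 24 libraries of log2 CPM centred within each method, which share library depth, and are given as a description.

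By the same measure miR-320-3p was most like miR-873a-5p (0.81), miR-708-3p (0.81) and miR-378a-3p (0.77). miR-877-5p was most like miR-138-5p (0.67), miR-377-3p (0.66) and miR-188-5p (0.63), and miR-1224-5p like miR-671-5p (0.64), miR-582-3p (0.62) and miR-7b-5p (0.60). miR-484 was most like miR-1912-3p (0.63), miR-15a-5p (0.62) and miR-23a-3p (0.61), and miR-1981-5p like miR-592-5p (0.60), miR-27a-3p (0.60) and miR-494-3p (0.58). Of these 15, 8 had medians of 8 or fewer UC reads per library, namely miR-1912-3p, miR-23a-3p, miR-377-3p, miR-188-5p, miR-671-5p, miR-7b-5p, miR-592-5p and miR-494-3p. The members did not move as one group, with r from −0.55 (miR-484 and miR-1224-5p) to 0.43 (miR-484 and miR-877-5p) over their 15 pairs.

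Few other intron-filling hairpins gave more than scattered reads. In GENCODE M21, 23 of 2202 miRNA hairpins filled an intron of up to 150 bases within 5 bases of its ends. Beside the members, 22 names from these hairpins had reads, 216 in all with UC and 215 with the kit. Of these, miR-3102-5p and miR-7080-5p passed the filter in both methods. miR-3102-5p had 136 UC and 114 kit reads and was lower with the kit (log2 difference −1.61, SE 0.26, adjusted p = 1.4e-06), and miR-7080-5p, with 29 and 45 reads, was not called (−0.71, adjusted p = 0.180). From a wider list of reported Drosha-independent miRNAs, miR-668-3p was higher with the kit (0.66, SE 0.26, adjusted p = 0.0223) while miR-1839-5p was not called (0.25, SE 0.14, adjusted p = 0.120). miR-702-5p had 1 read with each method. None of these names passed adjustment for KA.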

How the data were processed

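Per the labels and the study's methods, the authors sequenced small RNA libraries, trimmed reads and mapped them to miRBase 21 hairpins with the Chimira web server. One deposited table per library holds raw read counts by mature miRNA and another holds them by modification pattern. How reads matching several hairpins were assigned is not given in the sources used here. Without entries marked as doubled, both tables gave equal totals for a miRNA in a library in 11992 of 11992 cases, and the altered share was taken as 1 less the unaltered share of the plain count. A name absent from a table counted as 0 reads.

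The members and lists were chosen with earlier results of these data known. Markers of other cell types were read under the names used in the tables (miR-142a-3p, and miR-486a-5p with miR-486b-5p). The genes named are the 7 members, the 3 miRNAs most like each tested member, miRNAs of intron-filling hairpins and a wider list of Drosha-independent miRNAs.

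UC and kit (24 libraries) and KA or time (12 libraries of a method) were compared with edgeR 4.0.16 in R 4.3.3 (TMM factors, glmQLFTest, Benjamini-Hochberg over all miRNAs tested, no replicate block). A miRNA was tested with over 1 CPM in at least 6 libraries, of each method where both were compared. Standard errors came from the log2 difference and the F statistic. Depth was 85436 to 676726 counts per library, and 3 reads were the floor. Shares of arms and altered reads used libraries with at least 10 reads, permutation within treatment and time, and exact permutation of KA within time (smallest p 0.005), in Python 3.11.15 with scipy 1.17.1. They were adjusted over all miRNAs or hairpins with enough reads, and not over the members as first planned. Position 1 of a 3′ addition was taken as the first base after the annotated end, since 0.439% of reads then had templated bases there, against 20.6% and 17.3% for a shift by 1 base either way. Alternatives were RLE factors, library size only, library totals without the 3 most abundant miRNAs, DESeq2 1.42.0, limma-voom (limma 3.58.1), other filters, subsets of libraries, the replicate block and each library left out. Those of the interactions, and the totals without 3 miRNAs for time, were added after seeing the data.

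Replicate numbers come from the labels, which name no shared animal or day. Same-numbered libraries deviated together in every pair (r over 0.1) for UC at 2 weeks (KA and control, 0.111 to 0.214) and the kit at 2 weeks (0.192 to 0.310). So did UC libraries of KA mice at both times (0.113 to 0.174). The other comparisons did not in every pair, though single r there reached 0.337. Libraries of unlike number were not compared. In all 24 pairs of libraries of a group, counts differed by more than sampling noise (chi-square per degree of freedom of at least 5.89).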

Additional observations from a re-analysis of the deposited data

How the results depend on the processing

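The method difference of miR-320-3p, miR-1224-5p and miR-320-5p kept its direction and its call under all alternatives run (log2 −2.43 to −1.92, −2.77 to −2.31 and −1.89 to −1.29, kit minus UC, beside the values with 1 library left out). Totals without the 3 most abundant miRNAs moved the median of all miRNAs to −0.41 from −0.02. There miR-877-5p was called (−0.84, adjusted p = 0.00300), as it was with limma-voom (−0.59, 0.0389) and with the replicate block (−0.53, 0.0330), and miR-1981-5p lost its call (0.75, 0.122), as at 24 h (1.24, 0.110) and 2 weeks alone (0.98, 0.150). miR-484 changed sign with library size only (0.012), no filter (0.018), control libraries only (0.040), 2 weeks only (0.24) and single libraries left out (−0.14 to 0.12). Over all miRNAs 263 were called, 163 of 193 with at least 10 counts in 6 libraries, 193 in KA libraries or at 2 weeks alone and 307 of 1073 without a filter. For KA with UC at 2 weeks, calls over all miRNAs were 4 and ranged from 0 to 6 (0 to 9 with 1 library left out), for UC at 24 h they were 2 and reached 4, and for the kit at 2 weeks they were 0 and reached 2. For time in UC libraries of KA mice they were 4 and ranged from 3 to 9 (2 to 10). Beside miR-877-5p, the paired fits (replicate block) changed the call of miR-320-5p for time in UC libraries of KA mice (adjusted p = 0.00967, against 0.0708 in the edgeR fit without the block). They changed no other member's call.

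Of the members, 0 were called for KA at 2 weeks with UC, and 0 to 1 with 1 library left out. For time in UC libraries of KA mice 0 were called, 1 with the replicate block, 1 with totals without the 3 most abundant miRNAs, and 0 to 1 with 1 library left out. In KA comparisons, log2 differences changed sign for miR-320-3p with the kit at 2 weeks (0.016 without a filter, −0.19 to 0.12 with 1 library left out) and, with 1 library left out, for miR-320-5p with the kit at 24 h (−0.012 to 0.85) and 2 weeks (−0.78 to 0.15), miR-877-5p with the kit (−0.27 to 1.47) and UC (−0.0098 to 0.58) at 2 weeks, and miR-1224-5p with UC at 24 h (−0.70 to 0.29) and 2 weeks (−0.66 to 0.11). The method difference of altered reads changed sign for miR-877-5p with at least 20 reads (−0.14 percentage points) or 1 library left out (−0.31 to 2.70) and for miR-1224-5p with no minimum (0.051) or 1 library left out (−3.12 to 1.43). That of the miR-320 arms after KA did so with 1 library left out (UC −0.23 to 1.30, kit −1.16 to 1.498). The causes were not tested. With 15 UC reads of miR-1981-5p and 55 of miR-484, depth limits what could be seen of them.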
